A study of Caenorhabditis elegans with 4 samples.

Results

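The sites described here are the 735 EFL-1 ChIP peaks on chromosome V of Caenorhabditis elegans, out of 4966 peaks in the list that combined both replicates. They were chosen by chromosome alone, as every combined peak whose chromosome field was V. Chromatin immunoprecipitation followed by sequencing (ChIP-seq) was done with a rabbit polyclonal antibody against EFL-1 on hermaphrodite L1 larvae of strain MT10430, which carries lin-35(n745) on chromosome I. There were 2 EFL-1 ChIP samples and 2 input samples of total chromatin DNA, all of this 1 genotype and stage, and the inputs were not analysed here. Animals with intact lin-35 were not part of the set, so nothing below compares mutant with wild type. The stage label carries the tag 26dC although the stated growth temperature was 20 °C, and no label says if the replicates were separate cultures.

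EFL-1 is a worm transcription factor of the E2F family and binds DNA as a dimer with its partner DPL-1. Together with LIN-35, the worm homologue of the retinoblastoma protein, it belongs to the DREAM complex, which holds cell cycle and germline genes down in somatic cells. Chromosome V is the longest of the worm chromosomes. As on the other autosomes, its arms recombine more often and are richer in repeats than its central region, where conserved and essential genes lie more densely. The arms of V are also known for large families of chemoreceptor genes. Which genes lie at the sites was not analysed here, because the gene table at hand is of another genome build, and no sequence is shown, as no genome of the files' build was used here. All positions are in WormBase WS220, as in the file headers.

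The V sites began at 8150 and ended at 20904052, close to both ends of the 20.9 Mb over which any list had peaks. They made up 14.8% of the combined list and covered 205 kb, or 0.979% of the chromosome. After 5 overlaps between neighbours were joined, 730 separate sites were left. Strength is given only as the number in each peak's name, which counts from 1 for the strongest peak of a list. The combined list gives the same score to every peak, and 692 V sites matched a replicate 1 peak and 546 a replicate 2 peak at the tied top score of that list. Among these the order rests on the authors' numbering alone. Read counts and enrichment were not in the lists, so the depth behind a site is unknown and no error can be put on its height.

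The 10 strongest V sites lay in both arms and in the centre, and all 10 had numbers up to 56 in replicate 1 and up to 43 in replicate 2, the samples from which the combined list was made. The first of them ran from 5939494 to 5939911 and was combined peak 8. In the replicates it had numbers 17 and 8. Only 21.8 kb away, from 5917681 to 5918096, lay combined peak 37 (33 in replicate 1, 40 in replicate 2), so that 2 of the 10 were neighbours with no other combined site between their centres. A further pair in the left arm stood from 773238 to 773616 (combined peak 17, peaks 12 and 21 in the replicates) and from 5204146 to 5204547 (combined peak 18, peaks 15 and 28).

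In the centre, combined peak 15 from 8031152 to 8031556 had number 32 in replicate 1 and number 10 in replicate 2. Combined peak 41 from 7237142 to 7237487 had numbers 43 and 39. Further along, combined peak 25 from 10897185 to 10897537 had numbers 36 and 22, and combined peak 22 from 11733500 to 11733838 had numbers 39 and 19. These central sites ranked a little higher in replicate 2 than in replicate 1 in each case. So did combined peak 8 in the left arm and both right-arm sites given next. Combined peaks 17, 18 and 37 in the left arm ranked higher in replicate 1. The right arm held the other two, combined peak 16 from 17921377 to 17921778 (numbers 25 and 11) and combined peak 48 from 18086723 to 18087128 (numbers 56 and 43). Both stood in the emptiest stretch of the chromosome, described below.

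All 10 were wider, at 339 to 418 bp, than the 330 bp that most weaker sites had. Their centres lay at most 9 bp from the matching replicate 1 peak and at most 6 bp from the matching replicate 2 peak. Of the 10 sites, 6 had no other combined site within 5 kb of their centre. The closest neighbour of the other 4 was between 0.476 and 4.05 kb away, and of these neighbours the strongest was combined peak 791. Down the list, V held 1 of the first 10 combined peaks, 11 of the first 50, 19 of the first 100 and 146 of the first 1000. Its share of the whole combined list was 14.8%, and whether the top of the list differs from that share was not tested.

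EFL-1 sites on V were denser in the centre of the chromosome than in its arms. The extent was divided into 3 equal segments, called left arm, centre and right arm here, with borders at 6.97 and 13.9 Mb. The left arm held 234 sites, the centre 304 and the right arm 197. These counts correspond to 33.6, 43.6 and 28.2 sites per Mb. The density of the centre was 1.41 times that of the arms (exact 95% interval 1.21 to 1.64, two-sided exact binomial p = 5.46e-06). Neighbouring peaks are not independent, so this p may be too small. With the middle 50% of the chromosome as its centre the ratio was 1.65 (1.42 to 1.93).

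Each replicate taken by itself placed its peaks in the same way. Among the 4966 strongest peaks of replicate 1, 740 lay on V, with 232, 308 and 200 in the left arm, centre and right arm and a central ratio of 1.43 (1.23 to 1.65). Among those of replicate 2, 751 lay on V, with 247, 315 and 189 and a ratio of 1.44 (1.25 to 1.67). The full lists, with 3873 and 3952 peaks on V, gave ratios of 1.41 and 1.39. The combined list was made from these same samples, so the likeness adds no separate evidence. The difference between the arms was less firm. The left arm had 1.19 times the sites of the right arm (0.98 to 1.44, two-sided exact binomial p = 0.0828). That ratio was 1.31 (exact p = 0.00627) among the strongest peaks of replicate 2 and 1.16 (exact p = 0.136) among those of replicate 1. These binomial tests, and those given further below, also treat neighbouring peaks as independent, so each p may be too small.

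Split in the same way, the other autosomes also had denser combined sites in the centre. Their ratios were 1.32 on I (1.16 to 1.51), 1.27 on II (1.10 to 1.46), 1.29 on III (1.13 to 1.47) and 1.25 on IV (1.09 to 1.44). All of these intervals overlap that of V. On X the ratio was 0.88 (0.73 to 1.05), and its interval lies below that of V. Whether V differs from any other chromosome in this ratio was not tested.

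**Figure D1:**
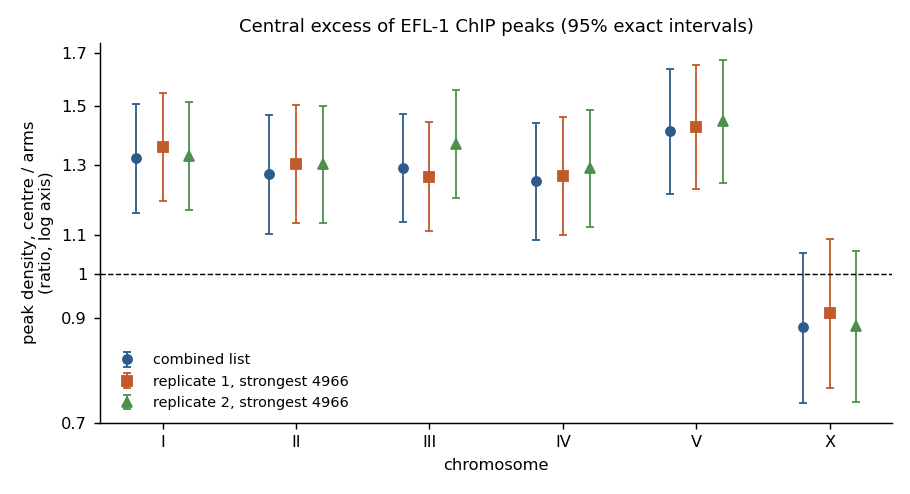
Density of EFL-1 ChIP peaks in the middle segment of each chromosome divided by that in its outer segments (log axis). Circles stand for the combined list, squares and triangles for the 4966 strongest peaks of replicates 1 and 2, and bars for exact 95% intervals. Chromosome V lies at 1.41, 1.43 and 1.44, above the dashed line of equal density.

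In bins of 500 kb, V held 17.4 ± 6.90 combined sites (SD over 41 full bins, from 2 to 31). The fullest bin, from 11500001 to 12000000, held 31 sites, and it was also the fullest in both replicate lists, with 162 and 166 peaks. Bins of 29 sites stood from 5500001 to 6000000, before the start of the centre and around the strongest V site, and from 14000001 to 14500000, just past its end. The emptiest bin, from 17000001 to 17500000, held 2 combined sites and was likewise the emptiest of both replicate lists, with 28 peaks each. The centre averaged 21.7 ± 5.69 sites per bin (SD, n = 14 bins), the left arm 16.8 ± 5.38 (SD, n = 14 bins) and the right arm 13.4 ± 7.25 (SD, n = 13 full bins). The ranges overlap widely, since the left arm reached 29 and the centre went down to 13.

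**Figure D2:**
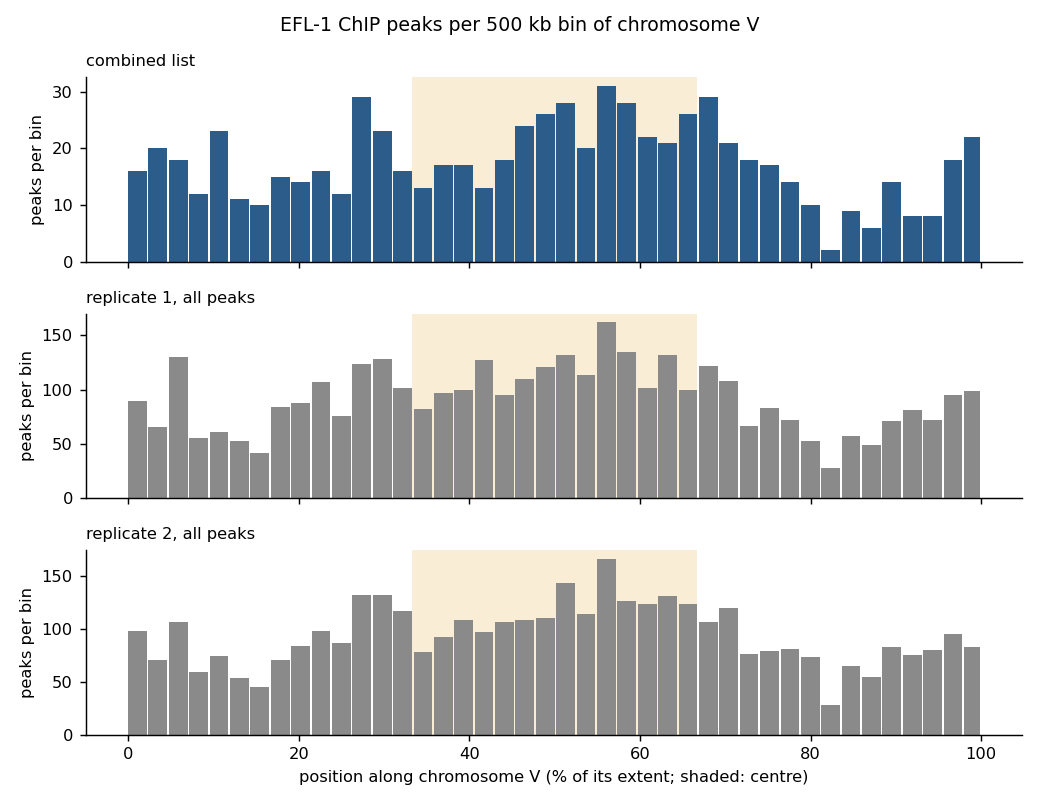
EFL-1 ChIP peaks per 500 kb bin along chromosome V, as % of its extent, in the combined list and in the full list of each replicate. The centre is shaded and the last bin is shorter than the others. Counts peak at 31, 162 and 166 near the centre and drop to 2, 28 and 28 in the right arm.

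The right arm had a long sparse stretch, but the tip beyond it was well occupied. From 16500001 to 20000000, a span chosen after the counts were seen, there were 57 combined sites in 3.5 Mb, or 16.3 per Mb, against 38.9 per Mb over the rest of V. In the full replicate lists the same span had 117 and 131 peaks per Mb against 199 and 200. Its density was thus 0.42 times that elsewhere among combined sites and 0.59 and 0.65 times among all replicate peaks. Of the 57 sites, 13 were among the first 1000 combined peaks, and the combined peaks 16, 48 and 85 were among these. Without this span the centre still had 1.22 times the density of the arms (1.04 to 1.42, two-sided exact binomial p = 0.0121). Further right, the window from 20700001 to 20800000 held 12 sites, the most in any 100 kb window of the chromosome. Next came 5 windows of 10 sites, which began at 100001 and 2200001 in the left arm, at 10000001 and 11500001 in the centre and at 15500001 in the right arm.

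Arms and centre differed more in their long empty stretches than in their median spacing. The median gap between neighbouring sites that did not overlap was 13.2 kb in the left arm, 13.2 kb in the centre and 15.1 kb in the right arm. At the long end the segments differed. The gap length that 90% of gaps did not exceed was 52.5 kb in the centre, 80.6 kb on the left and 93.3 kb on the right. Of the 41 gaps of 100 kb or more, 35 were centred in the arms, 16 on the left and 19 on the right. Such gaps took up 33.9% of the left arm, 13.3% of the centre and 46.6% of the right arm. Outside them the densities were 50.7, 50.3 and 52.9 sites per Mb. Leaving out long gaps draws densities together by construction, so these last values are only a description.

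**Figure D3:**
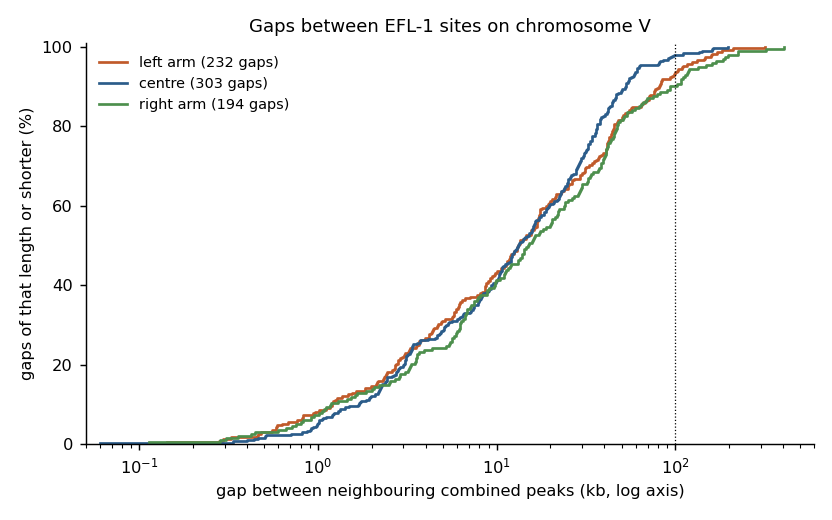
Share of gaps between neighbouring combined sites on V (%) that are of a given length or shorter (kb, log axis), by segment of the chromosome. The dotted line marks 100 kb. The medians are 13.2 kb on the left, 13.2 kb in the centre and 15.1 kb on the right, and the centre reaches its end first, at 198 kb.

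The longest gap on V ran from 18087129 to 18490370, 403 kb without a combined site. It began right after combined peak 48, one of the 10 strongest sites, and ended at the weak combined peak 3651. Both replicates had peaks inside it, 35 and 39, but none stronger than number 5182 in replicate 1 and number 5179 in replicate 2. Of the 35 replicate 1 peaks, 5 overlapped one of the 39 in replicate 2. Over all of V, 59.8% of replicate 1 peaks numbered 6001 to 8000 and 29.0% of those from 8001 on overlapped a replicate 2 peak. Whether the gap differs from peaks of like rank elsewhere was not tested. The second gap, from 17538508 to 17857890 (319 kb), ended at combined peak 224 and held 22 and 24 replicate peaks. The third, from 2281827 to 2600531 (319 kb), was the one of these in the left arm and the poorest in peaks of any rank, with 6 in replicate 1 and 13 in replicate 2.

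The other 2 of the 5 longest gaps were again in the right arm, from 19673573 to 19897520 (224 kb, 20 and 14 replicate peaks) and from 17315243 to 17538360 (223 kb, 10 and 16). The latter was parted from the second gap by 1 lone site, combined peak 2568. Over the 5 gaps together, 1.49 Mb, replicate 1 had 62.5 peaks per Mb and replicate 2 had 71.2. Counting likewise only peaks that overlapped no combined site, the rest of V had 155 and 158 per Mb. The gaps were chosen for holding no combined site, so these densities are a description. Gaps of 100 kb or more numbered 41 on V and 34 on X, and from 4 on III to 18 on IV among the other autosomes. These counts are not adjusted for length or site density. V had 35.1 combined sites per Mb over 20.9 Mb and X had 33.2 over 17.7 Mb. The other autosomes were shorter than V and had from 48.4 per Mb on IV to 71.8 on III. The longest gaps of the other chromosomes were from 133 kb on III to 235 kb on IV.

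At the other extreme, 152 of the 735 sites (20.7%, exact 95% interval 17.8 to 23.8%) lay in clusters, defined as 3 or more sites with neighbouring centres within 5 kb. There were 44 clusters, 31 of them with 3 sites, 9 with 4 and 4 with 5 to 7. Another 194 sites stood in pairs, and 389 (52.9%) were alone. The share in clusters was alike in the left arm (20.5%), the centre (21.7%) and the right arm (19.3%). It was 17.3% on X and from 24.0% on IV to 29.6% on III among the other autosomes, which are more densely occupied, and the difference between chromosomes was not tested.

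The largest cluster lay in the centre, from 10031403 to 10047035, with 7 sites in 15.6 kb. In order along the chromosome its sites were combined peaks 148, 2602, 1431, 4360, 662, 2466 and 4819, so that the strongest stood at the left edge and sites of very unlike rank alternated. The sites 148 and 662 had numbers 116 and 557 in replicate 1 and 190 and 781 in replicate 2. Site 4360, between 1431 and 662, had number 3724 in replicate 1 but number 21042 in replicate 2. That was the weakest rank of any V site in either replicate. The centre of this replicate 2 peak lay 149 bp from that of the site, against a median of 8 bp over V sites.

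The second cluster, from 15564004 to 15578578 in the right arm, had 6 sites around combined peak 109 (numbers 128 and 99), and its other members ranked from 2198 to 4822. The third (13655312 to 13664639) and the fourth (10711803 to 10723597) had 5 sites each, none stronger than combined peaks 1384 and 1503. Of the 9 clusters with 4 sites, the shortest, from 9544273 to 9549714, spanned 5.44 kb. It held combined peaks 1055, 1649, 192 and 1427, and was the only one of the 9 with every site in the stronger 50% of the list. In 3 of the 9 every site was in the weaker 50%. A large cluster was thus built around a strong site in some cases and wholly of middling and weak sites in others.

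**Figure D4:**
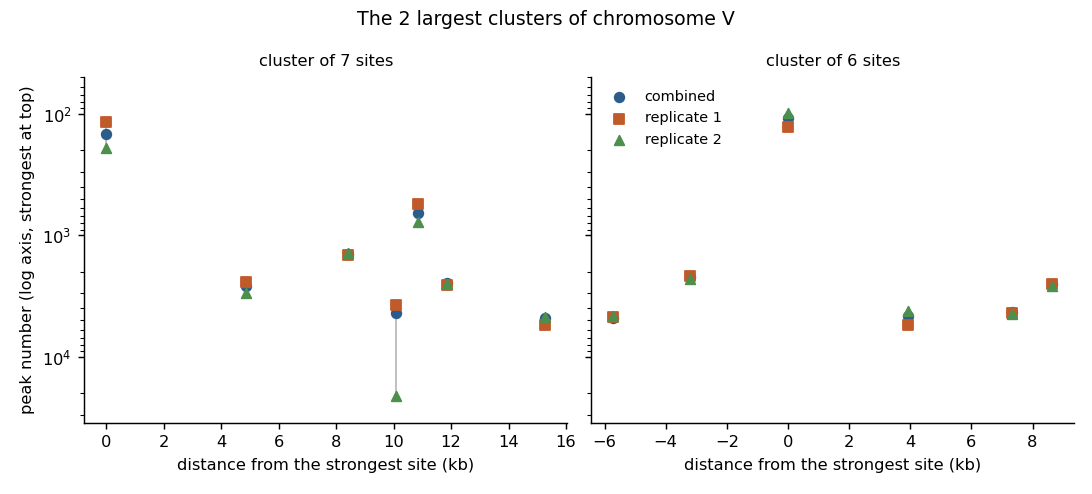
Sites of the clusters of 7 and 6 on V, by distance from the strongest site (kb) and by peak number (log axis, strongest at the top) in the combined list and both replicates. Grey lines join the numbers of 1 site. In the cluster of 7, site 4360 has number 3724 in replicate 1 and 21042 in replicate 2, where the matched peak is centred 149 bp away.

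Almost every V site was found in both replicates. Of the 735, 734 overlapped a replicate 1 peak and 732 a replicate 2 peak by at least 1 bp, and 731 overlapped both (99.5%, exact 95% interval 98.6 to 99.9%). The combined list was made from these same replicates, so a high share is no test of it. The 4 sites that lacked a partner, named here because there were so few, were all in the weaker 50% of the list. Combined peak 3864 (156175 to 156323) had no replicate 1 peak and was number 13075 in replicate 2. Combined peaks 3289 (6658760 to 6659089), 4842 (7437586 to 7437915) and 4007 (13807276 to 13807605) had no replicate 2 peak, although in replicate 1 they were numbers 2256, 4164 and 3556.

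The replicates placed V sites close together and ranked them alike. Between replicates, the centres of the matching peaks were a median of 15 bp apart, and 616 of 731 pairs (84.3%) were within 50 bp. Peak numbers in the replicates were correlated across these 731 sites (Spearman rho = 0.90). The sites come from a list made from these same replicates and were selected for rank, so this value is only a description. For 685 sites (93.7%) the numbers differed by no more than a factor of 2. Where they differed by more, the site was weaker in replicate 2 in 32 cases and weaker in replicate 1 in 14. Beyond number 10000 there were 16 V sites in replicate 2 and 0 in replicate 1.

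**Figure D5:**
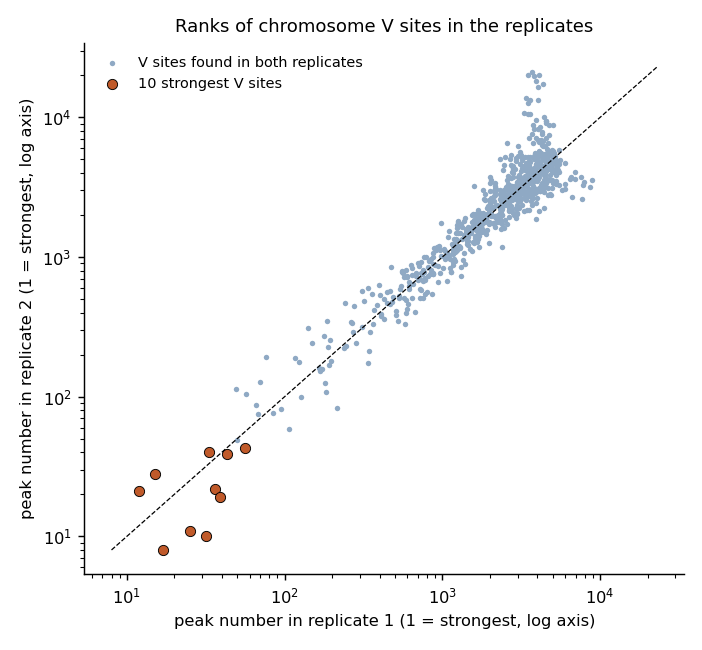
Peak number of each V site in replicate 1 and replicate 2 (log axes, 1 is the strongest), for the 731 sites found in both. Orange points are the 10 strongest sites and the dashed line marks equal numbers. The points spread upwards at the weak end, where 15 of these sites pass number 10000 in replicate 2.

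When the V sites were ordered by strength and cut into 5 groups of 147, those in the first 2 groups were all among the 4966 strongest peaks of both replicates. This held for 98.6% of the third group, 87.1% of the fourth and 27.2% of the last. The fall is fixed by construction, since the combined order follows the replicate ranks (Spearman rho = 0.97 and 0.95 across the 731 sites). The median distance to the matching replicate peak grew over the same groups from 3.5 to 12 bp in replicate 1 and from 4.5 to 14 bp in replicate 2. Distances were taken to the strongest overlapping peak, not the nearest, so a weak site beside a stronger one can be matched to that one's peak. Combined peak 4611, which overlaps combined peak 1913, lay 229 and 175 bp from the peaks matched to both. How much of the growth comes from this matching was not tested. Most of the weak sites had the same width of 330 bp. The distance to the nearest other site had medians of 5.33, 6.64, 6.57, 5.71 and 3.94 kb, so the weakest group stood closest to a neighbour. The central ratio was above 1 in all 5 groups, from 1.20 (0.84 to 1.69) in the third to 1.82 (1.30 to 2.55) in the second, and these intervals overlap.

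In rank and width, V sites were not told apart from the sites of other chromosomes. On V, 352 of 735 sites (47.9%, exact 95% interval 44.2 to 51.6%) were in the stronger 50% of the combined list, against 2131 of 4231 elsewhere (50.4%, 48.8 to 51.9%; Fisher's exact test, two-sided, p = 0.231, adjusted p = 0.448). Among the 4966 strongest peaks of both replicates were 607 V sites (82.6%, 79.6 to 85.3%) and 83.5% of the others (82.4 to 84.6%; Fisher's exact p = 0.520, adjusted p = 0.520). The fixed width of 330 bp was found in 401 V sites (54.6%, 50.9 to 58.2%) and 52.5% of the others (51.0 to 54.0%; Fisher's exact p = 0.298, adjusted p = 0.448). The adjustment is Benjamini-Hochberg over these 3 tests. A p above the threshold does not show that the shares are equal.

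Within V, strong sites were not confined to the denser centre. Of the 146 V sites among the first 1000 combined peaks, 43 were in the left arm, 60 in the middle and 43 in the right. They were 18.4%, 19.7% and 21.8% of the sites there. The sparser right arm thus did not hold a lower share of strong sites, although the difference was not tested. The median combined number was 2637 there, 2454 in the centre and 2873.5 in the left arm.

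Most replicate peaks on V did not enter the combined list, and those left out were nearly all weak. Of the 3873 replicate 1 peaks on V, 765 (19.8%) overlapped a combined site, and of the 3952 replicate 2 peaks 768 (19.4%) did. In all, the combined list held 4966 peaks and the full replicate lists 22275 and 22464. A low share thus follows from the lengths of the lists and is not a trait of V. Every V peak numbered 1 to 2000 in either replicate overlapped one. For numbers 3001 to 4000 the share was 98.1% in replicate 1 and 87.8% in replicate 2, for 4001 to 5000 it was 71.5% and 48.9%, and for 5001 to 6000 it was 18.9% and 26.5%. At numbers 5001 to 6000 the share found in the other replicate was still 76.2% and 76.5%. Overlap between the replicates on V thus reached beyond the combined list. It was counted from 1 bp against the full other list. No level of overlap by chance and no share for other chromosomes is given, so this is a description only.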

How the data were processed

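The authors deposited peak lists of 2 EFL-1 ChIP samples and 1 combined list, in WormBase WS220, per the file headers. The source field names SPP, a peak caller, and IDR, a procedure that retains peaks of like rank in replicates. Of the aligner, versions, thresholds, input use and way of combining, nothing is given in the sources used here. The deposited score has no stated unit and is tied for all combined peaks, so the peak number was used as rank. Peak start and end positions were used as deposited. Replicates are numbered as in the sample titles; the deposited files carry the numbers 2 and 3.

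Counts and tests used scipy 1.17.1, pandas 2.3.3 and numpy 2.4.6 under Python 3.11.15, and figures used matplotlib 3.10.9. The extent of a chromosome was the highest peak end in any list. Peaks were placed in segments, bins and windows by their centre, and matched by an overlap of at least 1 bp, taking the strongest partner. The 95% intervals are exact (Clopper-Pearson), count peaks, and cover counting error only. Binomial and Fisher tests were first tested on simulated peaks and counts drawn independently. That check does not cover the dependence between neighbouring peaks. Sites named are the 10 strongest, the 5 largest clusters (ties broken by shorter span), the 5 longest gaps and the fullest and emptiest bins; others were named after their values were seen. The members and lists were chosen with earlier results of these data known. Gene lists and motifs were planned but not analysed, since the gene table at hand is of assembly WBcel235 and no genome of the files' build was at hand.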

Additional observations from a re-analysis of the deposited data

How the results depend on the processing

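The central ratio on V kept its direction and call under each of the 10 alternatives run, from 1.22 without the sparse span of the right arm, which was added after the data were seen, to 1.65 with the middle 50% as centre. The stronger 50% of V sites gave 1.50, the weaker 50% 1.33, and peaks within 10 kb counted once 1.46. With each replicate's strongest peaks alone in place of the combined list it was 1.43 to 1.44. The ratio of left to right arm, not called at 1.19, was 1.41 with each outer 25% as an arm (two-sided exact binomial p = 0.00562), and 1.16 to 1.31 with 1 replicate alone, called in replicate 2 only; the cause was not tested. The share of V sites found in both replicates was 85.9% under a reciprocal overlap of 50%; the cause was not tested. It did not move with centres within 200 bp. The share in clusters was 5.03% with neighbours within 2 kb and 38.4% within 10 kb, which follows from the definition. Among each replicate's strongest peaks alone, the longest gap was 403.3 to 446.6 kb and began at 18087117 and 18087112. The full replicate lists had weaker peaks inside the longest gap of the combined list. Differences between V and the other chromosomes, none of them called, changed sign under 2 alternatives. The difference in fixed width went from 2.09 to -1.02 percentage points in the stronger 50% of the list, and that in sites strong in both replicates from -0.941 to 0.485 points under the reciprocal overlap. No paired analysis was possible because only ChIP peak lists were analysed and no result compares groups of samples. Motif alternatives were not run, for want of a genome of the files' build. Without read depths, whether a weak peak is absent from a replicate or was missed there cannot be told apart.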
